A study of Homo sapiens with 34 samples.

Results

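The lamins and their nearest partners in the nuclear envelope were followed in 3 cell lines of B-cell acute lymphoblastic leukemia (B-ALL), after knockdown of *CCND3* or treatment with the CDK4/6 inhibitor palbociclib. The 10 genes were taken by name: the lamins *LMNB1*, *LMNB2* and *LMNA*, the lamin B receptor *LBR*, the LEM-domain genes *TMPO*, *EMD* and *LEMD3*, *BANF1*, and the SUN-domain genes *SUN1* and *SUN2*. All 10 were listed in each of the 6 comparisons, among 17587 genes listed in any of them and 13307 listed in all 6. NALM-6 carries the label ETV6-PDGFRB, RS4;11 the label MLL-AF4 and BV-173 the label BCR-ABL. In each line, cells transduced with a lentivirus carrying a *CCND3* shRNA or a scrambled shRNA were sorted on day 4, and other cells received 1 µM palbociclib or DMSO for 3 days. The 34 samples formed 12 groups of 3 samples each, except that NALM-6 with the *CCND3* shRNA and BV-173 in DMSO had 2. Knockdown rested on 1 shRNA design, and the shRNA and drug arms had separate controls and differed in duration.

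The nuclear lamina is a meshwork of intermediate filaments under the inner nuclear membrane. B-type lamins are made in most cells, while A-type lamins are scarce in many lymphoid cells. LBR and the LEM-domain proteins tie the lamina to chromatin, BANF1 bridges LEM proteins and DNA, and SUN proteins link the lamina to the cytoskeleton across the envelope. The envelope is taken apart and rebuilt at each mitosis, and loss of *LMNB1* is a known mark of lasting cell-cycle exit.

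The values are levels, 1 for each group in the table of its comparison. How they were scaled is not given in the sources used here, so ratios were taken only within a table. They carry no spread between samples, so a level has no error here, the depth per sample is unknown, and the 3 cell lines were the unit that repeats. A p-value of a treatment therefore sets its mean against the spread between these lines. That spread was pooled over both treatments, with ratios of the same line taken as independent, and drawn toward that of all genes. The SD printed beside a p-value is of 1 treatment alone and is not the spread that the p-value used. The levels of a group summed to between 17810468 and 20756235, and the median log2 ratio of a comparison lay between -0.01 and 0.06. Of 11 precursor B-cell markers, 10 to 11 exceeded 10 parts-per-million (ppm) of the group's summed level in each group, and together they made up 3239 to 6016 ppm. The summed level of 5 T-cell markers was at most 0.386 ppm, of 4 erythroid markers at most 0.0669, of 5 stromal markers at most 11.1 and of 6 myeloid markers at most 29.4. *CCND3*, the targeted gene, was left at 24.2% of the scrambled level (NALM-6), 20.7% (RS4;11) and 31.1% (BV-173), a mean log2 ratio of -2.0 ± 0.30 (SD, n = 3 lines, limma adjusted p = 0.0231). After palbociclib *CCND3* was at 78.0%, 81.8% and 76.0% of DMSO in the same lines.

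The 3 genes with the largest falls after palbociclib were *LMNB1*, *TMPO* and *LBR*, and the stretch before each gene's start is shown so that these promoters can be compared. Each line gives the 200 bases before the start in RefSeq (GRCh38.p14), 5′ to 3′ on the gene's strand, with CCAAT in capitals. *LMNB1* lies on the plus strand at chr5:126776423-126776622, *TMPO* on the plus strand at chr12:98515373-98515572 and *LBR* on the minus strand at chr1:225428822-225429021.
LMNB1: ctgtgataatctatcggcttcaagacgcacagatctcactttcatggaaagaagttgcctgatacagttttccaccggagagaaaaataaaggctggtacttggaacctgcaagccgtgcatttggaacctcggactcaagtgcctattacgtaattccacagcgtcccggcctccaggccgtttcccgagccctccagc
TMPO: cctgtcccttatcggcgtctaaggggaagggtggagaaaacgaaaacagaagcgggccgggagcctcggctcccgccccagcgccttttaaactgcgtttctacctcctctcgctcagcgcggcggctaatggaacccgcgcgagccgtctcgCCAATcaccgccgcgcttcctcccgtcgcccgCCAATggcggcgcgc
LBR: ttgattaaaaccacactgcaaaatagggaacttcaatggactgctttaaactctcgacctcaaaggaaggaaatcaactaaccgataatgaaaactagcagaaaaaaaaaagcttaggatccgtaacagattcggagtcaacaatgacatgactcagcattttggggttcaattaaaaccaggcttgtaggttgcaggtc

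The 3 stretches differ in composition: G and C made up 66.5% of the *TMPO* stretch, 51% of that of *LMNB1* and 39% of that of *LBR*. Short words known from many cell-cycle promoters were searched on both strands from 250 bases before to 50 after the start. The word CCAAT stood in 5 of 9 windows (*LMNA*, *TMPO*, *EMD*, *LEMD3* and *SUN2*), against 35.7% of 27305 promoters. The word TTTGAA stood in 2 (*LMNB2* and *SUN2*), against 15.4%. The word TTTNNCGC, where N is any base, stood in 2 (*LMNA* and *LEMD3*), against 6.9%. *TMPO* held CCAAT at -47 to -43 and again at -15 to -11, counted from the start. The windows of *LMNB1*, *LBR* and *BANF1* held none of the 3 words, in the single start per gene that was searched. *SUN1* had no entry.

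In the control groups, B-type lamin transcripts were abundant and *LMNA* was nearly absent. In ppm per kilobase of transcript, *BANF1* averaged 178 over the 6 control groups, *TMPO* 149 and *LMNB1* 142, and these 3 took ranks 1 to 3 in every control group. *LBR* followed at 87.4, rank 4 in each. *LMNB2* (56.9, range 43.5 to 73.9) and *SUN2* (56.2, range 29.1 to 91.1) overlapped, as did *LEMD3* (23.4, range 10.5 to 49.5) and *SUN1* (20.1, range 13.4 to 27.2). *EMD* had a mean between them at 34.8 (range 29.55 to 41.59), and its range overlapped those of *SUN2* and *LEMD3*. *LMNA*, which encodes lamins A and C, came last in each at 0.285 (range 0.0508 to 0.523). These levels come from separate tables that may not share a scale, and transcript lengths are the authors' averages.

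**Figure D1:**
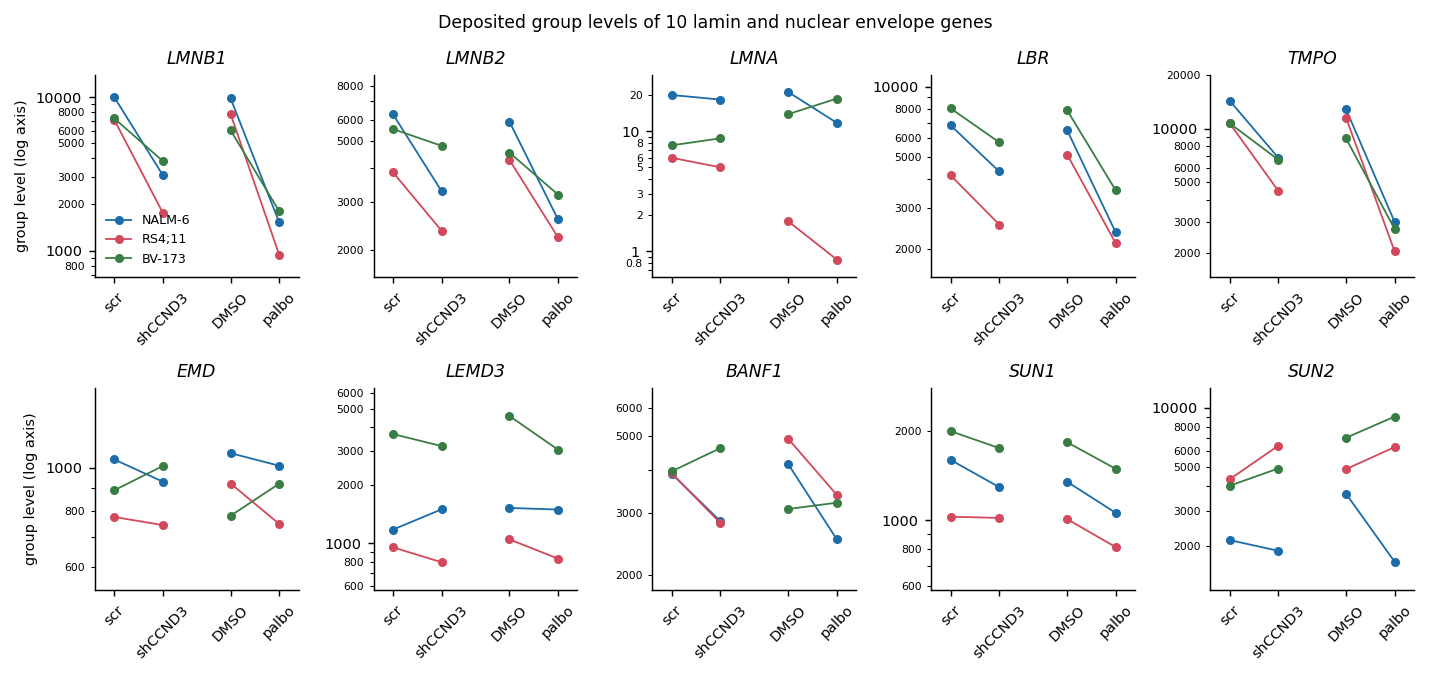
Deposited level of each of the 10 genes (vertical log axis, which differs between panels) in the 12 groups, with lines joining each treated group to its own control in 1 cell line. *LMNB1*, *TMPO*, *LBR* and *LMNB2* were below their control in all 6 comparisons, while *SUN2* was lower in NALM-6 and higher in the other lines.

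Whether cells left the cell cycle for good was not tested. *LMNB1*, a B-type lamin gene, was lower in every treated group. Its level went from 10006 with the scrambled shRNA to 3111 with the *CCND3* shRNA in NALM-6, from 7132 to 1770 in RS4;11 and from 7273 to 3836 in BV-173. With palbociclib it went from 9786.5 in DMSO to 1531 in NALM-6, from 7722 to 942 in RS4;11 and from 6073 to 1808 in BV-173. The 6 treated levels all lay below the 6 control levels, in separate tables that may not share a scale. The share of all genes with this pattern was not counted. After knockdown 31.1%, 24.8% and 52.7% of the control level was left (same line order), and after palbociclib 15.6%, 12.2% and 29.8%.

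*TMPO*, which encodes the LAP2 proteins that bind lamins and chromatin, followed the same order of lines. Under knockdown its level went from 14440 to 6908 in NALM-6, from 10785 to 4507 in RS4;11 and from 10768 to 6728 in BV-173. Under palbociclib it went from 12925 to 3008, from 11593 to 2057 and from 8854 to 2747. The treated and control levels of *TMPO* did not overlap, with the same limits of scale and of an uncounted share of all genes. RS4;11 kept the smallest share of its control under both treatments.

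*LBR*, an inner membrane protein that binds B-type lamins and heterochromatin and is also a sterol reductase, differed less between lines in its log2 ratios than *LMNB1*, *TMPO* or *LMNB2*. Under knockdown its level went from 6819 to 4315 in NALM-6, from 4150 to 2549 in RS4;11 and from 8069 to 5767 in BV-173. Under palbociclib it went from 6501 to 2357, from 5107 to 2117 and from 7924 to 3580. Lines differed in their starting level, so that *LBR* in BV-173 after knockdown stood above its control in RS4;11, in separate tables that may not share a scale.

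*LMNB2*, the second B-type lamin gene, changed less than *LMNB1* in all 6 comparisons. Under knockdown its level went from 6278 to 3281 in NALM-6, from 3844 to 2348 in RS4;11 and from 5543 to 4812 in BV-173. Under palbociclib it went from 5896 to 2582, from 4269 to 2220 and from 4541 to 3185. In BV-173 it kept 86.8% of its control after knockdown and 70.1% after palbociclib, the highest shares of the 3 lines.

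Set against all genes, the knockdown effect over the 3 lines was large for *LMNB1* but passed the threshold for none of the 10 genes. The log2 ratio of treated over control was fitted with limma for 11800 genes listed in all 6 comparisons with a mean level of at least 10, and calls were made at an adjusted p below 0.1. *LMNB1* had a mean log2 ratio of -1.54 ± 0.56 (SD, n = 3 lines, limma adjusted p = 0.102), and 7 genes of the fit had a lower mean. *TMPO* had a mean of -1.0 ± 0.30 and *LBR* of -0.62 ± 0.12, both with the same limma adjusted p of 0.102. *LMNB2* had a mean of -0.62 ± 0.38 (limma adjusted p = 0.146). None of the 10 genes was called lower, where 0.00847% of all genes were (*CCND3* alone), and none higher, where the share was 0%. At an unadjusted p under 0.05 limma gave 4 of the 10, all lower (*LMNB1*, *TMPO*, *LBR* and *LMNB2*), against 11.0% of all genes lower. The threshold fell close to these values: *LMNB1*, *TMPO* and *LBR* were called with a mean level of at least 100, a pseudocount of 1, a trended prior or knockdown fitted alone. Under these settings limma called 803, 142, 691 and 1061 genes of the whole fit, in place of 1. The adjusted p over 7 alternatives that kept all 3 lines ranged from 0.0608 to 0.129 for *LMNB1* and *TMPO* and from 0.0644 to 0.132 for *LBR*. With 1 line left out none was called, with limma adjusted p of 0.109 to 0.54 for *LMNB1* and *TMPO* and 0.12 to 0.542 for *LBR*.

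Within single lines, 2 to 4 of the 10 genes were past 1.5-fold after knockdown, with no test since each group has 1 level. In NALM-6 and in RS4;11, *LMNB1*, *TMPO*, *LBR* and *LMNB2* were at least 1.5-fold lower after knockdown, 4 of 10, against 8.47% of all listed genes in NALM-6 and 9.72% in RS4;11. In BV-173 *LMNB1* and *TMPO* were, 2 of 10 against 4.78%. None of the 10 was at least 1.5-fold higher, where the share of all genes was 7.82%, 9.73% and 3.32% in the same order of lines.

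Palbociclib lowered 5 of the 10 genes over the 3 lines, and raised none. *LMNB1* fell to a mean log2 ratio of -2.49 ± 0.66 (SD, n = 3 lines, limma adjusted p = 0.00416), that is to 17.9% of DMSO, and 171 genes of the fit had a lower mean. *TMPO* fell to -2.10 ± 0.40 and *LBR* to -1.29 ± 0.16, each with a limma adjusted p of 0.00348. *LMNB2* fell to -0.88 ± 0.34 (limma adjusted p = 0.0167) and *SUN1*, an inner membrane protein that binds nesprins, to -0.32 ± 0.03 (limma adjusted p = 0.0696). The call of *LMNB2* was lost without RS4;11 (-0.85, limma adjusted p = 0.118), and that of *SUN1* without any 1 of the lines (limma adjusted p of 0.164 to 0.26) or with palbociclib fitted alone (limma adjusted p = 0.176). Palbociclib moved a large part of the transcriptome: 20.4% of the 11800 genes were called lower and 18.2% higher. The median of the 10 genes was -0.44, beside 0.01 for all genes, and their median after knockdown was -0.20, beside 0.00.

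**Figure D2:**
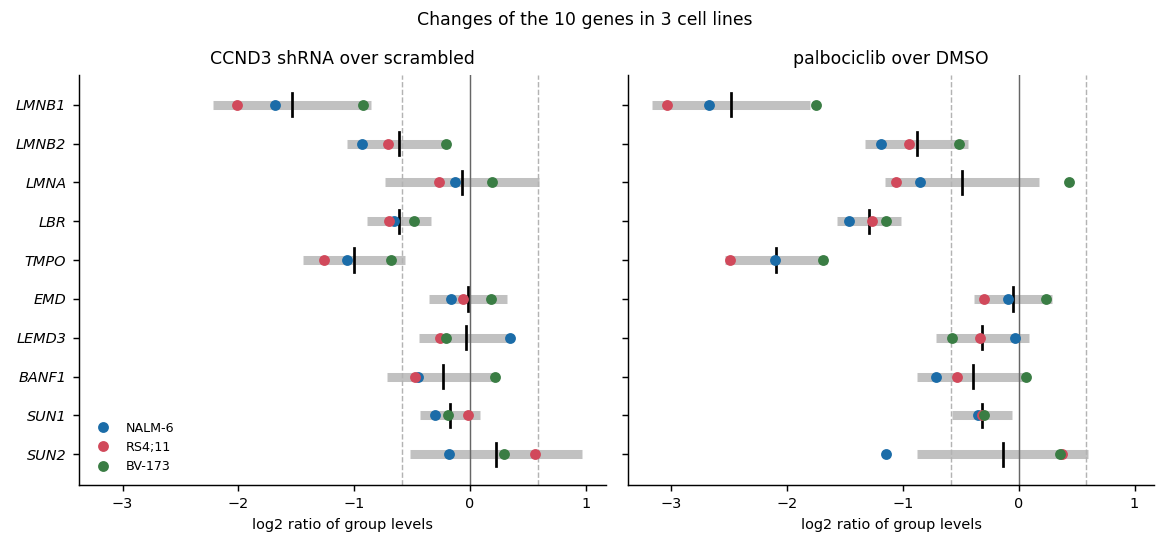
Log2 ratio of treated over control level for each gene in each cell line (points), with the mean of 3 lines (black bar) and its 95% limma interval (grey), and 1.5-fold marked by dashed lines. Under palbociclib *LMNB1* lay between -3.03 and -1.75 in the 3 lines, and *SUN2* between -1.14 and 0.37.

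By line, 7 of the 10 genes were at least 1.5-fold lower with palbociclib in NALM-6 (14.9% of all listed genes), 5 in RS4;11 (15%) and 3 in BV-173 (11.9%). *LMNB1*, *TMPO* and *LBR* were in all 3 counts. *LMNA*, at trace levels, was in those of NALM-6 and RS4;11. With a pseudocount of 1 the RS4;11 count was 4, and with the median ratio taken out the BV-173 count was 4. None was at least 1.5-fold higher, where 21.4%, 16.7% and 13.6% of all genes were.

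Knockdown and palbociclib were also compared within each line, which tests the difference itself. The log2 ratio of *TMPO* was 1.10 ± 0.12 less negative with knockdown than with palbociclib (SD, n = 3 lines, limma adjusted p = 0.0754), and that of *LMNB1* 0.95 ± 0.11 less negative (limma adjusted p = 0.0806). Beside these 2 of 10, 2.08% of all genes were called more positive with knockdown, and none of the 10 was among the 1.05% called more negative. *LBR* missed the threshold at 0.68 ± 0.12 (95% interval 0.34 to 1.01, limma adjusted p = 0.105), and was called under 4 of 7 alternatives (limma adjusted p of 0.0336 to 0.135). With 1 line left out *LBR* was not called (limma adjusted p of 0.2 to 0.324). For *LMNB2* the difference was 0.27 with a 95% interval of -0.05 to 0.58. Both calls were lost when any 1 line was left out, where the difference of *TMPO* was 1.02 to 1.14 and that of *LMNB1* 0.91 to 1.01 with limma adjusted p of 0.148 to 0.29. The treatments differed in agent, duration and control, which cannot be told apart.

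**Figure D3:**
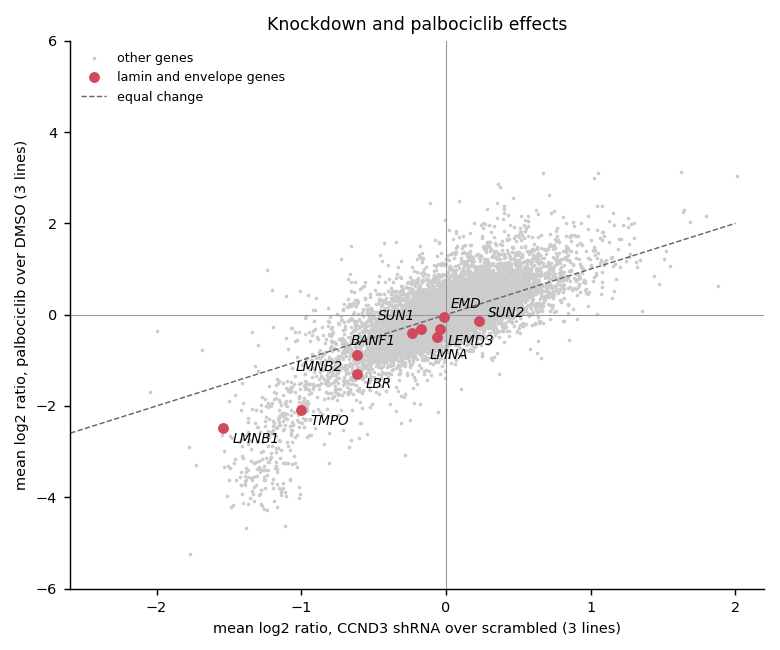
Mean log2 ratio over 3 lines after *CCND3* knockdown (horizontal) and palbociclib (vertical) for 11800 genes (grey) and the 10 lamin and envelope genes (red), with equal change as a dashed line. *LMNB1* at -1.54 and -2.49, *TMPO* at -1.0 and -2.10 and *LBR* at -0.62 and -1.29 lie below the line.

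Since *LMNB1* changed more than *LMNB2*, the make-up of the lamin transcripts shifted. Of the summed level per kilobase of the 3 lamin genes, *LMNB1* held 71.3% with the scrambled shRNA and 72.0% in DMSO in NALM-6, 74.0% and 74.1% in RS4;11, and 68.3% and 68.2% in BV-173. After knockdown its share was 59.5%, 53.5% and 56.7% in the 3 lines, and after palbociclib 47.8%, 40.2% and 47.5%. The 6 control shares, the 3 knockdown shares and the 3 palbociclib shares did not overlap. The ratio of *LMNB1* to *LMNB2* per kilobase was 2.16 to 2.87 in controls, 1.16 to 1.49 after knockdown and 0.673 to 0.924 after palbociclib. With the drug *LMNB2* exceeded *LMNB1* clearly only in RS4;11 (0.673). The ratio was near 1 in NALM-6 (0.924) and BV-173 (0.915), from levels without an error. The summed lamin level, in ppm per kilobase, went from 259 to 97.9 after knockdown in NALM-6 and from 235 to 60.4 with palbociclib. It went from 167.5 to 56.2 and from 180 to 40.1 in RS4;11, and from 195 to 116 and from 160 to 65.6 in BV-173. These shares were not tested. In these bulk samples, fewer cells that express a gene and less RNA per cell cannot be told apart.

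**Figure D4:**
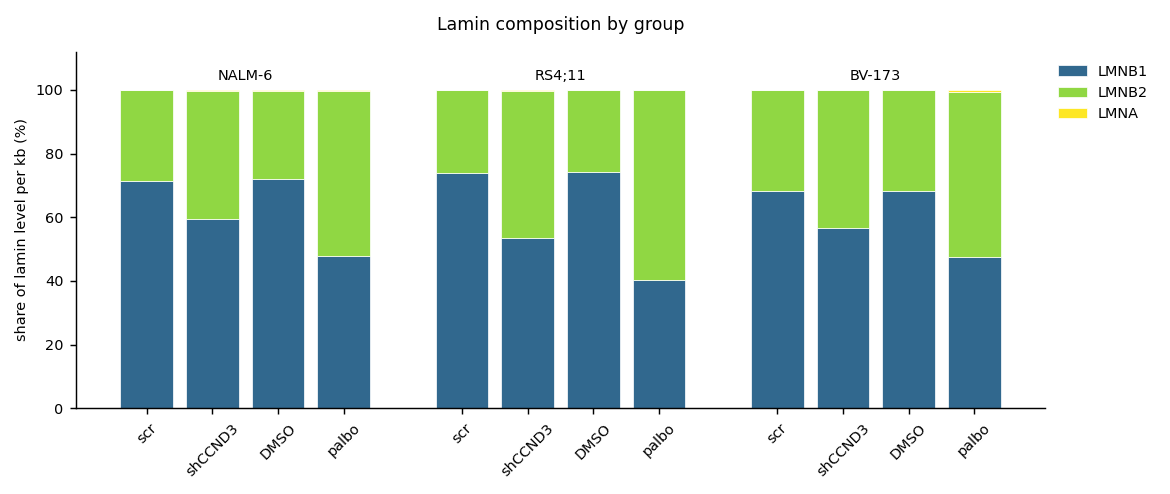
Share of *LMNB1*, *LMNB2* and *LMNA* (stacked bars, percent) in the summed level per kilobase of the 3 lamin genes, for each of the 12 groups. *LMNB1* held 68.2% to 74.1% in controls and 40.2% to 47.8% after palbociclib, and *LMNA* is hardly visible.

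*LMNA* remained a trace transcript in all groups. Its level was 20.0 with the scrambled shRNA and 18.3 with the *CCND3* shRNA in NALM-6, 5.99 and 4.99 in RS4;11 and 7.61 and 8.71 in BV-173. In DMSO and palbociclib it was 21.1 and 11.7 (NALM-6), 1.77 and 0.85 (RS4;11), and 13.8 and 18.7 (BV-173). It was lower with palbociclib in NALM-6 and RS4;11 and higher in BV-173, and the mean log2 ratio of -0.49 ± 0.81 did not pass the test (limma adjusted p = 0.225). Without BV-173 it was called at -0.95 (limma adjusted p = 0.0229), and it was at -0.31 without NALM-6 (limma adjusted p = 0.61) and -0.21 without RS4;11 (limma adjusted p = 0.71). With a pseudocount of 1 the mean log2 ratio was -0.33 (limma adjusted p = 0.321). The mean level of *LMNA* over the 12 groups, 11.1, was just above the filter of 10, which none of its RS4;11 levels reached. The filter was not redone when a line was left out, so the call without BV-173 rests partly on RS4;11 levels of 1.77 and 0.85. Log2 ratios of low genes spread less in the deposited tables: below a mean level of 10, where *LMNA* lay in 3 of its 6 comparisons, their SD was 0.236 to 0.796, against 0.384 to 1.01 between 10 and 1000. The highest share of *LMNA* in the lamin level was 0.627%, in BV-173 with palbociclib.

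The LEM-domain genes other than *TMPO*, and *BANF1*, passed the test under neither treatment. *EMD*, which encodes emerin, ranged from 744 to 1077 over the 12 groups, with mean log2 ratios of -0.01 ± 0.18 after knockdown and -0.05 ± 0.27 after palbociclib. The 95% limma intervals, -0.35 to 0.32 and -0.39 to 0.28, leave out a 1.5-fold change. *LEMD3* encodes MAN1, an inhibitor of SMAD signaling. Its level was 3064 to 4579 in BV-173 and 799 to 1528 in the other lines, in separate tables that may not share a scale. Its mean log2 ratio was -0.04 ± 0.34 after knockdown and -0.31 ± 0.28 after palbociclib (limma adjusted p = 0.202). With palbociclib it was lower in all 3 lines, with log2 ratios of -0.03 (NALM-6), -0.33 (RS4;11) and -0.58 (BV-173, 66.9% of control). *BANF1*, the DNA bridge, kept 73.2% and 71.9% of its control after knockdown and 61.0% and 69.1% after palbociclib in NALM-6 and RS4;11. In BV-173 *BANF1* stood at 116% and 104% of control. Its palbociclib mean of -0.40 ± 0.41 was not called (limma adjusted p = 0.183), but was without BV-173 (-0.62, limma adjusted p = 0.0429). Without NALM-6 it was -0.24 (limma adjusted p = 0.556).

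The SUN genes differed from each other. *SUN1* was lower in all 6 comparisons, by small amounts: 80.9%, 99.0% and 87.6% of control after knockdown in the order NALM-6, RS4;11, BV-173, and 78.6%, 80.5% and 81.4% after palbociclib. *SUN2* in NALM-6 went from 2133 to 1882 after knockdown and from 3665 to 1658.5 after palbociclib. In RS4;11 it went from 4329 to 6405 and from 4880 to 6308, and in BV-173 from 4020 to 4913 and from 7035 to 9005. NALM-6 was thus lower and the other lines higher under both treatments. The mean log2 ratio of *SUN2* was 0.22 ± 0.38 after knockdown (limma adjusted p = 0.737) and -0.14 ± 0.87 after palbociclib (limma adjusted p = 0.764), and neither passed the test.

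Other genes of the envelope were read as lists, beside the 20.4% of all genes called lower and 18.2% called higher with palbociclib. Of 13 further inner membrane and LINC complex genes in the fit, 6 fell and 2 rose with palbociclib, with a list median of -0.30. *NRM*, which encodes nurim, was at -2.19 ± 0.77 (limma adjusted p = 0.00613) and *NEMP1* at -1.99 ± 0.52 (limma adjusted p = 0.00386). *TMEM43*, which encodes LUMA, rose by 0.93 ± 0.03 (limma adjusted p = 0.00378), and *SYNE1*, the giant nesprin-1, by 0.73 ± 0.09 (limma adjusted p = 0.0206). Of 30 nuclear pore genes 24 fell and none rose, with a median of -0.71. The largest falls were those of *NUP58*, a subunit of the central channel, at -1.26 ± 0.20 (limma adjusted p = 0.0037) and *NUP155*, a scaffold subunit, at -1.15 ± 0.49 (limma adjusted p = 0.0105). Of these 13 and 30 genes, knockdown gave no call with limma, and 4 and 18 at an unadjusted p under 0.05, of which 3 and 18 were lower, where 11.0% of all genes were lower and 8.86% higher.

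For genes that process lamins or reshape the envelope the counts were read against the same shares. With palbociclib 20.4% of all genes were called lower and 18.2% higher. Of 5 genes for farnesylation and cleavage of lamins, palbociclib raised 1, *FNTB*, the farnesyltransferase beta subunit, at 0.43 ± 0.35 (limma adjusted p = 0.0937). Of 15 genes for envelope disassembly and resealing, 4 fell and 1 rose. *VRK1*, a kinase that phosphorylates BANF1, fell to -1.51 ± 0.43 (limma adjusted p = 0.0058), and *LPIN1*, a phosphatidate phosphatase, rose by 0.61 ± 0.09 (limma adjusted p = 0.014). Of 6 chromatin partners of the lamina 3 fell, among them *CBX5*, which encodes HP1 alpha, at -1.55 ± 0.72 (limma adjusted p = 0.0123). Knockdown gave no call in these 3 lists with limma. At an unadjusted limma p under 0.05 it gave 1 (lower), 2 (1 lower and 1 higher) and 1 (lower). Of all genes 11.0% were lower and 8.86% higher at that limit.

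**Figure D5:**
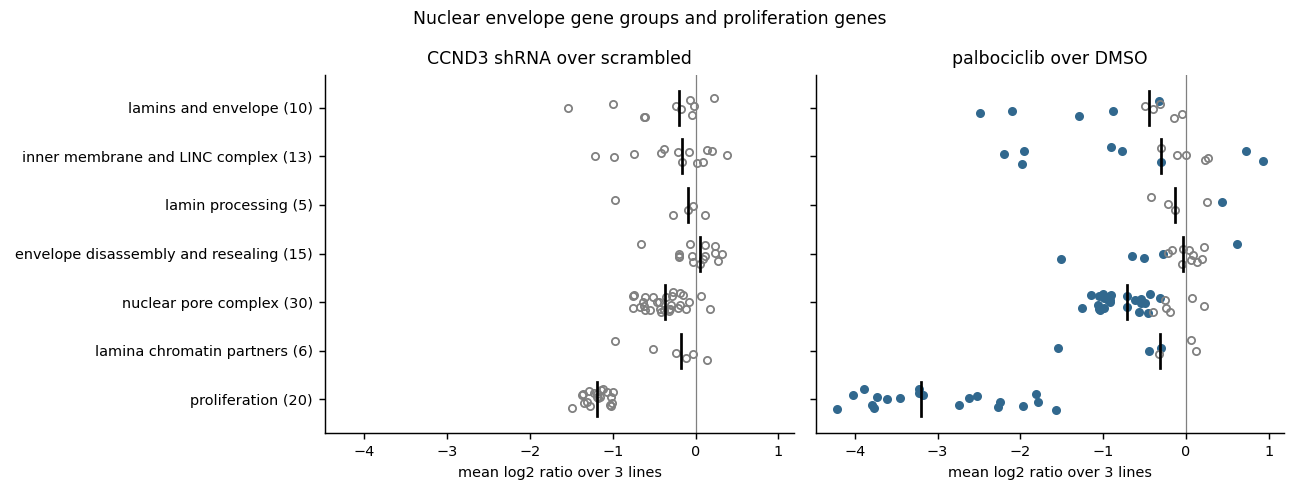
Mean log2 ratio over 3 lines for each gene of the lamin set, of 5 envelope lists and of a proliferation list, after knockdown (left) and palbociclib (right). Filled points were called at a limma adjusted p under 0.1, open points were not, bars are medians, and list sizes are in brackets. The 24 called nuclear pore genes all lie below 0, and the proliferation genes lie lowest with a median of -3.20 after palbociclib.

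Proliferation genes moved in the same direction as the B-type lamins. All 20 listed genes fell with palbociclib, with a median log2 ratio of -3.20, where 20.4% of all genes were called lower. Their median after knockdown was -1.19. There limma called none, and 11 were lower at an unadjusted p under 0.05, against 11.0% of all genes. In the difference between treatments limma called 9 of the 20 more positive with knockdown, against 2.08% of all genes, and none more negative. The median difference of the list was 1.95. The part of these proliferation changes in those of *LMNB1*, *TMPO* and *LBR* was not tested. Of 13 other genes known as marks of lasting cell-cycle exit, 6 were in the fit. *HMGB2* and *HMGB1*, chromatin proteins that are lost on lasting exit, fell with palbociclib to -3.53 ± 0.98 (limma adjusted p = 0.00356) and -1.59 ± 0.34 (limma adjusted p = 0.0043). Lasting exit itself was not tested.

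The genes whose 6 log2 ratios were closest to those of *LMNB1*, by root mean square distance among 10073 genes with a mean level of at least 100, were *STIL* (0.195), *BLM* (0.232), *KNTC1* (0.285), *WDHD1* (0.287) and *CHAF1A* (0.289). *STIL* had ratios of -1.31, -1.78 and -0.81 after knockdown and -2.565, -3.11 and -1.71 after palbociclib, in the line order used above. Of the other lamin and envelope genes, *TMPO* came nearest to *LMNB1* at rank 95, *LBR* was at rank 385 and *LMNB2* at rank 566. The genes closest to *LMNA* were *ATG16L2*, *PSMB2*, *FBXO4*, *TMCO6* and *WDR27*, at distances of 0.15 to 0.228, from ratios that rest on the trace levels above.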

How the data were processed

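RNA of 34 samples in 12 groups was read from 6 tables, 1 per comparison. Per the labels, the authors used SOAPnuke for read filtering, Bowtie2 for mapping (hg38), RSEM for expression levels and DESeq2 for group comparisons, with versions not given in the sources used here. The deposited signal is 1 level per group, and its scaling is not given in the sources used here. The tables also hold the authors' fold changes and p-values, which were not used. RSEM shares reads between similar transcripts, so paralogs may exchange reads.

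The log2 ratio of treated over control was taken within each line and fitted with limma 3.58.1 (R 4.3.3) for 11800 genes with a mean level of at least 10, with 1 coefficient per treatment. The treatments shared 1 estimate of the spread between lines. The difference was fitted on ratios paired by line. Benjamini-Hochberg adjustment covered all 11800 genes, and calls used an adjusted p under 0.1. The scripts were tested on simulated data. Levels per kilobase were taken in parts-per-million of each group's summed level over the deposited gene length.

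Samples were grouped by labelled line and treatment. Named were the 10 genes, *CCND3*, at most 2 genes from each end of a list, and the 5 genes nearest to *LMNB1* and to *LMNA*. A result of 1 list gene is not reported here. The genes and lists were chosen with earlier results of these data known. Alternatives were the level filter, a pseudocount of 1, median centring, limma's prior, each treatment alone, each line left out, the thresholds and the promoter window. Promoters came from RefSeq for 9 of 10 genes and figures from Python 3.11.15 with matplotlib 3.10.9.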

Additional observations from a re-analysis of the deposited data

Results flagged for a closer look

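*SUN2* moved in opposite directions between lines with palbociclib. Its log2 ratio was -1.14 in NALM-6 and 0.37 in RS4;11, a gap of 1.51, and 0.36 in BV-173. *LMNA* did likewise at trace levels, with -1.06 in RS4;11 and 0.43 in BV-173, a gap of 1.49, and -0.85 in NALM-6. Each group has 1 level, so these differences between lines were not tested.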

How the results depend on the processing

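No paired analysis was possible because the tables hold 1 level per group and no replicate numbers, and leaving out each replicate could not be run for the same reason. After knockdown, limma called 3 of the 10 genes instead of 0 with a mean level of at least 100, a pseudocount of 1, a trended prior or knockdown fitted alone, and 2 with the median ratio taken out, while calls over all genes went from 1 to 803, 142, 691, 1061 and 133 in that order. With 1 line left out it called 0 to 0 after knockdown, 3 to 6 after palbociclib (3 without RS4;11) and 0 to 0 for the difference between treatments. The difference also gave 0 without a level filter and at an adjusted p under 0.05, and 3 instead of 2 with a mean level of at least 100, a pseudocount of 1, a trended prior or the median taken out. Palbociclib gave 4 instead of 5 when fitted alone or at an adjusted p under 0.05, without *SUN1*. At a fold of 2, knockdown counts were 2 (NALM-6), 2 (RS4;11) and 0 (BV-173), and at the smallest fold tried palbociclib counts were 8 in RS4;11 (7 lower, 26.1% of all genes, and *SUN2* higher, 28.5%) and 7 in BV-173 (5 lower, 22.7%, and *SUN2* and *LMNA* higher, 25.9%).

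Mean log2 ratios changed sign only when a line was left out. After knockdown the range over the 3 omissions was -0.20 to 0.034 for *LMNA* (highest without RS4;11), -0.11 to 0.060 for *EMD* (above 0 at 0.0081 without RS4;11 and highest without NALM-6) and -0.23 to 0.071 for *LEMD3* (above 0 at 0.046 without BV-173 and highest without RS4;11). After palbociclib it was -0.20 to 0.073 for *EMD* (highest without RS4;11) and -0.39 to 0.36 for *SUN2* (highest without NALM-6). The difference for *EMD* was -0.064 to 0.091 (lowest without RS4;11). *LMNB1*, *TMPO* and *LBR* were called lower with palbociclib under every alternative, with adjusted p up to 0.0561. Of the other values for single genes and promoters, 283 kept their direction and side of the threshold, 20 passed it, 16 fell short and 3 promoter shares moved.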
